A study of Danio rerio with 9 samples.

Results

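The genes described here are 10 rows of an RNA sequencing count table that covers 32055 gene identifiers. They comprise *jun*, *junba*, *junbb*, *jund*, *fosab*, *fosl1a*, *fosl2* and *atf3*, which encode subunits or relatives of the transcription factor AP-1, and the early response genes *egr1* and *ier2b*. They were chosen by comparing measured levels across the same 9 libraries, so their values, fold changes and counts are given as a description and no test of them is used as support. The other gene lists below were written by hand with earlier results of these data known, so their counts are a description as well. In all, 3 groups of pooled zebrafish embryos were compared, with 3 libraries each. Wild-type embryos formed the first group. The other embryos were maternal-zygotic *mondoa* mutants (MZ*mondoa*, allele ka405), the offspring of homozygous parents, and were divided by phenotype into mutants with unaffected epiboly and mutants with affected epiboly. In epiboly the blastoderm thins and spreads to cover the yolk, and MondoA is the glucose-sensing transcription factor that these mutants lack. Both mutant groups carried the same small frameshift deletion, and the affected embryos were additionally selected by eye as the minority whose epiboly was delayed. The affected libraries carry a separate, later run of sample numbers than the other groups. What that reflects is not known here, and any difference in handling cannot be told apart from phenotype. The labels give 5 hours post fertilization for every sample, whereas the methods of the study describe embryos late in epiboly, and the stage was not resolved here.

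AP-1 is a dimer of basic leucine zipper proteins. Members of the Jun family pair with each other or with members of the Fos family, which do not form stable dimers among themselves, and the dimer binds a short DNA element in promoters and enhancers. Many of these genes are immediate early genes: in vertebrate cells their transcription is induced within minutes of a growth factor, a stress or a wound, through MAP kinases and factors already present in the cell, and needs no new protein synthesis. Atf3 is a stress-induced relative that binds DNA alone or with Jun proteins, Egr1 is a zinc finger factor induced by the same signals, and *ier2b* encodes an early response protein.

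Total counts per library ranged from 27567897 to 39299268, and levels are given as CPM (counts of a gene relative to the TMM-scaled size of its library). At these depths 3 counts correspond to at most 0.108 CPM. Transcripts of *mondoa* (*mlxip*) were measured at 51.9 to 113 CPM in wild-type, at 13.0 to 21.0 CPM in unaffected and at 12.8 to 16.1 CPM in affected libraries. After removal of genes with low counts 16962 genes were fitted in edgeR, with a median log2 fold change of -0.01 between unaffected and wild-type, -0.02 between affected and wild-type and -0.01 between affected and unaffected embryos. Among the 10 rows, 8 passed this filter. The row ENSDARG00000074378 (*junb*) and *egr1* did not. The name table gives both *junb* identifiers the same symbol, so which of them is *junba* and which *junbb* is not known, and they are called by their identifiers. The libraries came from whole embryos, in which fewer cells of a type and less RNA per cell cannot be told apart.

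The largest differences among the 8 fitted genes lay between affected embryos and both other groups. *fosl1a* was 8.23-fold and *jun* 2.77-fold higher in affected than in wild-type embryos, and against unaffected mutants the differences were 4.77-fold and 3.0-fold. *atf3* and the *junb* row ENSDARG00000104773 were 2.53-fold and 2.35-fold higher in affected than in wild-type embryos, with the unaffected mutants in between. *fosab* was 2.17-fold higher in affected than in unaffected and 1.87-fold higher than in wild-type embryos. *jund* was at a similar level in all 3 groups. *fosl2* and *ier2b* were lower in affected than in wild-type embryos, and *ier2b* was lower in unaffected embryos as well. None of these differences of *fosab*, *fosl2* and *ier2b* had an edgeR adjusted p under 0.05.

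**Figure D1:**
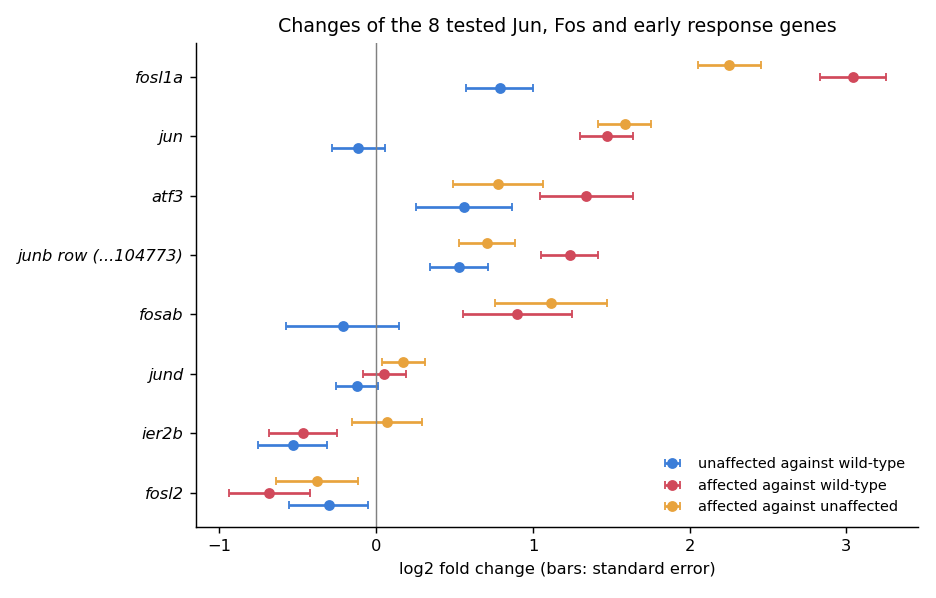
Log2 fold change (x axis) of the 8 fitted Jun, Fos and early response genes (y axis) in the 3 comparisons, with bars for the standard error. *fosl1a* and *jun* lie farthest to the right for affected embryos, *jund* lies near 0 in all 3 comparisons, and *fosl2* lies to the left.

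Among the Jun genes, *jun* (ENSDARG00000043531), which encodes the classical Jun subunit, had 32.1, 25.8 and 28.8 CPM in affected replicates 1 to 3. It had 8.66, 9.11 and 11.1 CPM in unaffected and 11.8, 8.0 and 11.5 CPM in wild-type replicates 1 to 3. All 3 affected libraries were thus above all 6 others, while the unaffected and the wild-type libraries overlapped. The log2 fold change was 1.59 (SE 0.17) between affected and unaffected and 1.47 (SE 0.17) between affected and wild-type embryos. Between unaffected and wild-type embryos it was -0.11 (SE 0.17), less than its standard error.

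Junb proteins partner with Fos proteins and in mammals often oppose c-Jun at shared promoters. The *junb* row ENSDARG00000104773 had 4.58, 4.64 and 4.14 CPM in affected, 2.66, 2.74 and 2.78 CPM in unaffected and 2.15, 1.48 and 2.03 CPM in wild-type replicates 1 to 3. These levels formed a graded order in which no library of a group overlapped another group. On the log2 scale the difference was 0.53 (SE 0.19) for unaffected against wild-type, 1.23 (SE 0.18) for affected against wild-type and 0.71 (SE 0.18) for affected against unaffected embryos. The other *junb* row, ENSDARG00000074378, had 7, 9 and 10 counts in affected, 3, 1 and 3 counts in unaffected and 1, 4 and 4 counts in wild-type libraries. Its affected libraries were again above all others, at 0.286 ± 0.0390 CPM (SD, n = 3) against 0.0792 ± 0.0387 CPM in unaffected and 0.0829 ± 0.0457 CPM in wild-type libraries. At so few counts it was not fitted.

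*jund* (ENSDARG00000067850) encodes the Jun protein that is expressed most evenly in unstimulated cells. It had 21.9, 23.1 and 22.2 CPM in affected, 22.1, 19.8 and 17.7 CPM in unaffected and 26.1, 19.2 and 19.5 CPM in wild-type replicates 1 to 3. The groups overlapped in every comparison. Between affected and wild-type embryos its log2 fold change was 0.05 (SE 0.14), between affected and unaffected embryos 0.17 (SE 0.14) and between unaffected and wild-type embryos -0.12 (SE 0.14).

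**Figure D2:**
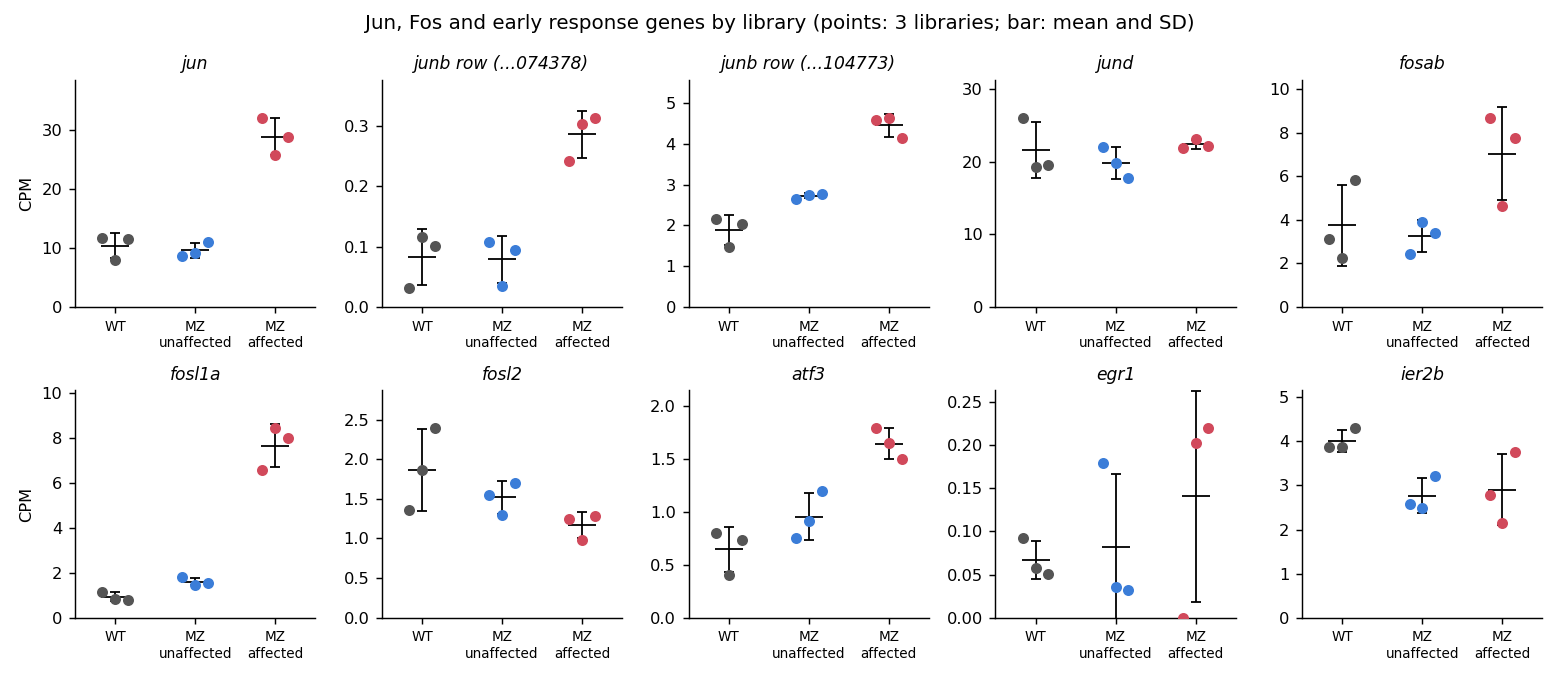
Level of each of the 10 genes in CPM (y axis, from 0, scaled for each gene) in wild-type (WT) embryos and in unaffected and affected MZ*mondoa* mutants. Points are libraries, and the bars give the mean and SD of 3 libraries, drawn no lower than 0; in *jun*, both *junb* rows, *fosl1a* and *atf3* the 3 affected libraries lie above all others.

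In the Fos family, *fosl1a* (ENSDARG00000015355) showed the greatest difference. It encodes the Fos-related protein Fra-1, which lacks the strong activation domain of c-Fos and in mammalian cells is itself induced by AP-1. Its level was 6.58, 8.44 and 7.99 CPM in affected, 1.80, 1.48 and 1.55 CPM in unaffected and 1.17, 0.843 and 0.788 CPM in wild-type replicates 1 to 3. The groups did not overlap in any comparison. Its log2 fold change was 3.04 (SE 0.21) for affected against wild-type, 2.25 (SE 0.20) for affected against unaffected and 0.79 (SE 0.22) for unaffected against wild-type embryos.

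*fosab* (ENSDARG00000031683), which encodes a c-Fos protein, varied more within groups. It had 8.68, 4.64 and 7.77 CPM in affected, 2.44, 3.91 and 3.38 CPM in unaffected and 3.14, 2.27 and 5.85 CPM in wild-type replicates 1 to 3. The affected libraries were above the unaffected ones, whereas wild-type replicate 3 was above affected replicate 2. The log2 fold change was 1.12 (SE 0.36) for affected against unaffected and 0.90 (SE 0.35) for affected against wild-type embryos, with the largest standard errors among the 8 fitted genes. Over the 15 alternative settings the value against wild-type ranged from 0.64 to 1.38, with the highest without wild-type replicate 3. It was called under 3 of them.

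*fosl2* (ENSDARG00000040623), which encodes the Fos-related protein Fra-2, went the other way. It had 1.24, 0.976 and 1.29 CPM in affected, 1.55, 1.30 and 1.71 CPM in unaffected and 1.35, 1.86 and 2.39 CPM in wild-type replicates 1 to 3. The affected libraries were below those of both other groups, though by narrow margins, and the unaffected and wild-type libraries overlapped. Its log2 fold change was -0.68 (SE 0.26) for affected against wild-type and -0.38 (SE 0.26) for affected against unaffected embryos.

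Of the remaining genes, *atf3* (ENSDARG00000007823) had 1.79, 1.65 and 1.50 CPM in affected, 0.754, 0.915 and 1.2 CPM in unaffected and 0.800, 0.407 and 0.737 CPM in wild-type replicates 1 to 3. The affected libraries were above all others, and unaffected replicate 1 lay within the wild-type range. Its log2 fold change was 1.34 (SE 0.30) for affected against wild-type, 0.78 (SE 0.29) for affected against unaffected and 0.56 (SE 0.31) for unaffected against wild-type embryos. *ier2b* (ENSDARG00000086881) had every library of both mutant groups below the wild-type libraries. It had 2.79, 2.15 and 3.76 CPM in affected, 2.59, 2.5 and 3.22 CPM in unaffected and 3.88, 3.87 and 4.30 CPM in wild-type replicates 1 to 3. Relative to wild-type its log2 fold change was -0.53 (SE 0.22) in unaffected and -0.47 (SE 0.22) in affected embryos, and the mutant groups overlapped, with 0.07 (SE 0.22) between them. *egr1* (ENSDARG00000037421) was near the detection limit, with 0, 6 and 7 counts in affected, 5, 1 and 1 counts in unaffected and 3, 2 and 2 counts in wild-type libraries. No difference in *egr1* was detectable at this depth, and the library with 0 counts allows a level of up to 3 counts.

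With an adjusted p threshold of 0.05 in edgeR, 4 of the 8 fitted genes were called higher in affected than in wild-type embryos (*jun*, ENSDARG00000104773, *fosl1a* and *atf3*) and 0 lower. Over all fitted genes, 15.4% were called higher and 15.0% lower in this comparison. With the replicate number as a block *fosab* was also called higher and *fosl2* and *ier2b* lower, which made 7. The block also raised the calls over all 16962 fitted genes in this comparison, from 5144 to 6667. Between affected and unaffected embryos 2 genes were called higher (*jun* and *fosl1a*) and 0 lower, against 1.88% and 1.11% of all fitted genes. With the replicate number as a block ENSDARG00000104773 was called as well, which made 3, while the calls over all fitted genes there rose from 507 to 1399. Between unaffected and wild-type embryos 1 gene was called higher (*fosl1a*) and 0 lower, against 4.65% and 4.95%. Because these contrasts served to choose the genes, nothing is read from the counts. The calls between affected embryos and either other group were kept under all 15 alternative settings. The call of *fosl1a* between unaffected and wild-type embryos was lost under 12 of them. These settings refit the libraries that served to choose the genes, so this too is a description and no support.

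Counted by libraries rather than by a test, 4 of the 8 fitted genes had all 3 affected libraries above all 3 wild-type ones and 2 had them below, against 22.6% and 22.5% of all fitted genes. Against unaffected libraries the affected ones were all higher for 5 and all lower for 1 of the 8 genes, where 13.3% and 12.1% of all genes did so. The unaffected libraries were all above the wild-type ones for 2 genes and all below for 1 gene, against 13.9% and 14.0%. The median log2 fold change of the 8 genes was 1.07 for affected against wild-type, 0.74 for affected against unaffected and -0.12 for unaffected against wild-type embryos.

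Markers of cell layers differed between affected embryos and both other groups, and genes listed for stage differed between affected and wild-type embryos. Over all fitted genes, 15.4% were called higher and 15.0% lower between affected and wild-type, and 1.88% and 1.11% between affected and unaffected embryos. Of 8 fitted markers of the yolk syncytial layer, 5 were called higher in affected than in wild-type and 4 higher than in unaffected embryos, and the summed level of the 9 matched markers was 3836 to 4569 CPM in affected, 2887 to 3407 CPM in unaffected and 3274 to 3475 CPM in wild-type libraries. Of 15 markers of the enveloping layer, the outer epithelium, 4 were called higher and 6 lower in affected than in wild-type embryos, and 0 higher and 4 lower than in unaffected embryos. When the replicate number entered as a block, 10 enveloping layer markers were called in either direction between the mutant groups and 5 yolk syncytial layer markers. The block also raised the calls over all fitted genes between the mutant groups, from 507 to 1399. The summed level of the enveloping layer markers was 10980 to 12328 CPM in affected, 14717 to 16890 CPM in unaffected and 12914 to 16587 CPM in wild-type libraries. Segmentation genes summed to 577 to 723 CPM in affected, 710 to 797 CPM in unaffected and 752 to 927 CPM in wild-type libraries, and 3 of 14 fitted genes were called higher and 7 lower in affected than in wild-type embryos. The blastula list held *nanog*, *pou5f3*, *sox19b*, *mych*, *vox*, *vent*, *ved* and *klf17*. *klf17* is also in the enveloping layer list, and the paper treats *vox* and *vent* as ventral markers, so this list does not mark stage alone. Its genes summed to 1252 to 1398 CPM in affected, 874 to 1166 CPM in unaffected and 872 to 945 CPM in wild-type libraries. Of the 8 genes, 4 were called higher and 1 lower in affected than in wild-type embryos. Between the mutant groups edgeR called 0 genes of either stage list, with 4 of each at an unadjusted p under 0.05. DESeq2 called 1 segmentation and 3 blastula genes there, as did the fit with the block. Over all fitted genes DESeq2 called 1224 there. The share of all fitted genes at an unadjusted p under 0.05 is not given here. With a library left out, the count of yolk syncytial layer markers called between the mutant groups fell from 4 to 0 (without affected replicate 2, unaffected replicate 1 or unaffected replicate 3) or 2 (without affected replicate 1), and that of enveloping layer markers ranged from 2 to 8. Over all fitted genes the calls between the mutant groups ranged from 42 to 697 in such fits. Between affected and wild-type embryos such fits called 5 to 9 segmentation and 3 to 5 blastula genes, and 3402 to 5459 over all fitted genes. The fewest came without affected replicate 2 for both lists, and equally without wild-type replicate 2 for the segmentation and wild-type replicate 1 for the blastula genes. Every matched marker had counts in some library except 1 segmentation gene. The part of layers and stage in the levels of the Jun and Fos genes was not tested.

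The 10 genes did not share a single library that was high throughout. In wild-type libraries replicate 1 was the highest for 6 and replicate 2 the lowest for 6 of the 10 genes. Among affected libraries replicates 1, 2 and 3 were the highest for 3, 3 and 4 genes, and among unaffected libraries for 4, 1 and 5 genes.

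Expression patterns were set against that of *jun* by the root mean square difference, over the 9 libraries, of log2 CPM relative to the wild-type mean of each gene. Within the set *atf3* and ENSDARG00000104773 were nearest, both at 0.41, followed by *fosab* at 0.44. *jund* was at 0.85, *fosl1a* at 1.03, *ier2b* at 1.19 and *fosl2* at 1.25. Like *jun*, *fosl1a* was higher in affected embryos, but by more. Between unaffected and wild-type embryos its log2 fold change was 0.79, where that of *jun* was -0.11. Among 8632 genes with an average log2 CPM of at least 3, the 8 nearest to *jun* were *mical3b* at 0.30, *marchf8* at 0.32, *slc4a2*, *tamalin* and *mdm2* at 0.33, *gucy2g* and *ftr82* at 0.35 and *ednra* at 0.36. *mdm2* encodes the ubiquitin ligase that limits p53 and *ednra* an endothelin receptor. For example, *mdm2* had 71.4 ± 4.78 CPM (SD, n = 3) in affected, 33.8 ± 5.47 CPM in unaffected and 27.3 ± 5.98 CPM in wild-type libraries. These genes were selected for their likeness to *jun*, and the 9 libraries are the only points compared.

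Other genes of the basic leucine zipper family were counted next. Of 13 fitted AP-1 and Maf genes outside the set, 1 was called higher and 0 lower between affected and wild-type embryos, against 15.4% and 15.0% of all fitted genes. It was *maff*, which encodes a small Maf protein. It rose from 21.3, 22 and 19.8 CPM in wild-type to 29.8, 39.2 and 34.1 CPM in affected replicates 1 to 3 (log2 fold change 0.71, edgeR adjusted p = 0.0021), with 24.6, 27.8 and 23.2 CPM in unaffected libraries. In the comparison of the mutant groups edgeR called 0 of the 13 genes, with 2 at an unadjusted p under 0.05 and 1 called by DESeq2 or with the replicate block. Over all fitted genes the shares there were 1.88% higher and 1.11% lower in edgeR, and DESeq2 and the block gave 1224 and 1399 calls. Between unaffected and wild-type embryos edgeR likewise called 0, against 4.65% and 4.95% of all fitted genes. There 2 of the 13 had an unadjusted p under 0.05 and DESeq2 called 0. For neither comparison is the share of all fitted genes at that unadjusted threshold given here. The median log2 fold change of the 13 genes was -0.03 for affected against wild-type and 0.06 for affected against unaffected embryos. For all genes it was -0.02 and -0.01. The other Fos genes of the table, *fosaa* and *fosb*, reached at most 8 and 6 counts and were not fitted, and *fosl1b* was at -1.25 for affected against wild-type (adjusted p = 0.068).

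Among 40 other fitted immediate early genes, 13 were called higher and 3 lower in affected than in wild-type embryos, and 8 higher and 0 lower in affected than in unaffected embryos. Over all fitted genes these shares were 15.4% and 15.0% against wild-type and 1.88% and 1.11% against unaffected embryos. Their median log2 fold change was 0.18 and 0.31 in these comparisons. This list too was written with earlier results known, and its counts are a description. Between unaffected and wild-type embryos 3 of the 40 genes were called higher and 2 lower, near the 4.65% and 4.95% of all fitted genes. The median there was -0.08, and 2 to 6 passed when a library was left out. In such fits the calls over all fitted genes ranged from 758 to 1797, against 1628 in the main fit. *nr4a1*, an orphan nuclear receptor, rose from 1.47, 0.668 and 0.758 CPM in unaffected to 3.03, 3.57 and 2.82 CPM in affected replicates 1 to 3 (log2 fold change 1.70, edgeR adjusted p = 0.0198), with 1.05, 0.901 and 1.09 CPM in wild-type. For this gene, as for *jun*, the unaffected and wild-type libraries overlapped and the affected ones stood above both.

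The *gadd45* genes encode small stress proteins that bind MAP kinase kinase kinases. The *gadd45b* row ENSDARG00000013576 had 21.7, 25.8 and 13.7 CPM in unaffected and 47.2, 51.3 and 47.1 CPM in affected replicates 1 to 3 (log2 fold change 1.25, edgeR adjusted p = 0.0146), above 10.1, 9.39 and 11.6 CPM in wild-type. This was a graded order like that of *junb* and *fosl1a*. The *gadd45b* row ENSDARG00000027744 rose by 0.78 (adjusted p = 0.0298) and the *gadd45g* row ENSDARG00000019417 by 0.61 (adjusted p = 0.0327) on the log2 scale.

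*mcl1b*, which encodes a short-lived Bcl-2 family protein that protects from apoptosis, had 70.8, 77.9 and 62.7 CPM in unaffected and 122, 160 and 123 CPM in affected replicates 1 to 3 (log2 fold change 0.94, edgeR adjusted p = 0.00965), with 42.5, 48.0 and 46.5 CPM in wild-type. Its groups did not overlap. The *zfp36l1* row ENSDARG00000021443, for a protein that promotes decay of AU-rich mRNAs, was 0.91 higher in affected than in unaffected embryos (adjusted p = 0.0147). Against wild-type embryos it was 1.24 higher on the log2 scale (adjusted p = 0.000332). The other *zfp36l1* row, ENSDARG00000016154, was 0.45 lower in affected than in wild-type embryos (adjusted p = 0.00428) and was not called between the mutant groups. *dusp1*, a phosphatase that inactivates MAP kinases, and the antiproliferative *btg1* also passed between the mutant groups, at 0.60 (adjusted p = 0.0134) and 0.41 (adjusted p = 0.0491).

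**Figure D3:**
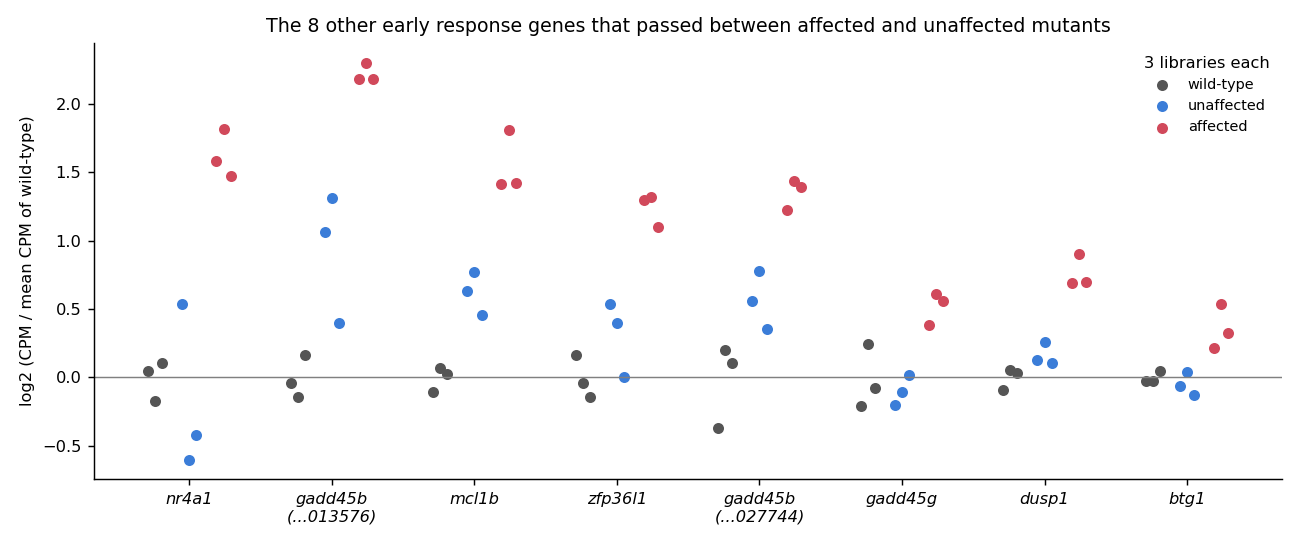
Level of the 8 other immediate early genes called between affected and unaffected embryos, as log2 of CPM over the mean of wild-type libraries (y axis), with each point a library. The 3 affected libraries lie above the 3 unaffected ones for each of these genes, which were plotted because they passed that test.

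The number of these calls between the mutant groups depended on single libraries, as did the number over all fitted genes. It was 8 over all libraries. When affected replicate 1 or 2 was left out it was 2 or 1, and when unaffected replicate 1 or 3 was left out it was 2 or 4, and 0 of the 8 genes passed in every such fit. Over all fitted genes the 507 calls became 67 or 42 without affected replicate 1 or 2. Without unaffected replicate 1 or 3 they became 48 or 97. With the replicate number as a block the count was 13 and with DESeq2 it was 12. Over all fitted genes the block gave 1399 and DESeq2 1224 calls between the mutant groups. Of the 16 calls between affected and wild-type embryos, 12 were kept whichever library was left out. *ier2a*, the paralogue of *ier2b*, was among the 3 genes that fell there, from 36.8, 33.3 and 34.1 CPM in wild-type to 25.9, 22.1 and 25.3 CPM in affected replicates 1 to 3 (log2 fold change -0.51, edgeR adjusted p = 0.0032). For both Ier2 genes every library of either mutant group was below the wild-type libraries.

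Kinases and factors that act upstream of AP-1 were counted in the same way. Of 35 fitted MAP kinase pathway and serum response genes, 4 were called higher and 6 lower in affected than in wild-type embryos, with a median of -0.27. These shares lie near the 15.4% and 15.0% of all fitted genes. The calls numbered 5 without affected replicate 1, affected replicate 2 or wild-type replicate 1. Over all fitted genes the 5144 calls became 3496, 3402 and 3985 in these fits. *elk1* and the *srf* row ENSDARG00000053918, which encode factors that bind serum response elements of early genes, fell by 0.74 (edgeR adjusted p = 0.00306) and by 0.52 (adjusted p = 0.0304) on the log2 scale. The other *srf* row (ENSDARG00000102867), *elk3* and *elk4* were not called. The kinase *map3k11* fell by 0.87 (adjusted p = 0.00324), *map3k5* fell by 0.52 (adjusted p = 0.0409) and the *mapk12* row ENSDARG00000042021 fell by 1.60 (adjusted p = 0.00905), whereas the other *mapk12* row, ENSDARG00000006409, rose by 0.41 (adjusted p = 0.025). *mapk11* and *map3k7* also passed as higher, at 0.47 (adjusted p = 0.0349) and 0.33 (adjusted p = 0.00971). *mapk10*, which encodes a Jun N-terminal kinase, had 1, 0 and 2 counts in wild-type, 21, 42 and 25 counts in unaffected and 47, 80 and 74 counts in affected libraries, and passed in both comparisons with wild-type. The other Jun N-terminal kinase genes of the list, both *mapk8* rows and *mapk9*, were not called in either. *map3k11* passed in both comparisons with wild-type as well, with -0.74 (edgeR adjusted p = 0.0182) for unaffected against wild-type embryos, a call lost under 3 of the 15 alternatives. Between unaffected and wild-type embryos 1 of the 35 genes was thus called higher and 1 lower, against 4.65% and 4.95% of all fitted genes. The calls of *srf*, *map3k5*, *mapk11* and ENSDARG00000006409 were lost under 4, 8, 6 and 4 of the 15 alternatives. Between the mutant groups edgeR called 0 of the 35 genes, with 4 at an unadjusted p under 0.05 and 1 called by DESeq2 or with the block. Over all fitted genes edgeR called 1.88% higher and 1.11% lower there. These 507 calls became 1224 with DESeq2 and 1399 with the block. The share of all fitted genes at an unadjusted p under 0.05 is not given here.

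Known AP-1 target genes were called in both directions, against wild-type in shares near those of all fitted genes (15.4% higher and 15.0% lower). Of 21 fitted genes, 3 were called higher and 4 lower in affected than in wild-type embryos (median 0.00), and 1 higher and 1 lower in affected than in unaffected embryos (median -0.04). In the second comparison 1.88% of all fitted genes were called higher and 1.11% lower. The matrix metalloproteinase gene *mmp9* rose from 0.826, 0.879 and 0.789 CPM in unaffected to 2.07, 3.16 and 1.66 CPM in affected replicates 1 to 3 (log2 fold change 1.46, edgeR adjusted p = 0.0422), and the fibronectin row ENSDARG00000006526 (*fn1*) fell from 124 ± 25.6 to 68.8 ± 1.97 CPM (SD over 3 libraries, log2 fold change -0.85, adjusted p = 0.018). With the replicate block 4 and with DESeq2 6 of the 21 genes passed between the mutant groups, and 0 passed without affected replicate 1, affected replicate 2, unaffected replicate 1 or unaffected replicate 3. Calls over all fitted genes between the mutant groups were 507 in the main fit, 1399 with the block and 1224 with DESeq2. In the fits that called 0 genes of this list they numbered 42 to 97. Named after their values were seen, the hyaluronan receptor gene *cd44a* and the *anxa1* row ENSDARG00000026726 were higher in affected than in wild-type embryos by 2.51 (adjusted p = 0.000726) and 2.01 (adjusted p = 0.00108) on the log2 scale. The 4 rows called lower in that comparison were both *fn1* rows, the *mmp14* row ENSDARG00000008388 and the *timp2* row ENSDARG00000075261. Their log2 fold changes were -1.31 (ENSDARG00000006526), -0.92 (ENSDARG00000019815), -0.91 and -0.87. *cd44a* and ENSDARG00000026726 were also called higher in unaffected than in wild-type embryos, at 1.53 (edgeR adjusted p = 0.0189) and 1.19 (adjusted p = 0.0301). These 2 calls were lost under 3 and 4 of the 15 alternatives, and neither gene was called between the mutant groups. The *mmp14* row and ENSDARG00000019815 were called lower in unaffected than in wild-type embryos, at -0.69 (edgeR adjusted p = 0.0451) and -0.54 (adjusted p = 0.034). These calls were lost under 9 and 8 alternatives. Of the 21 genes 2 were thus called higher and 2 lower, against 4.65% and 4.95% of all fitted genes.

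The heat shock list held mostly chaperone genes, together with the heat shock factors *hsf1* and *hsf2*. It gave 4 calls higher and 1 lower among 17 fitted genes between affected and wild-type embryos (median 0.14). Over all fitted genes 15.4% were called higher and 15.0% lower. The rises were at most 0.82 on the log2 scale, for *hsf2* (edgeR adjusted p = 0.00114), followed by *dnajb1b* at 0.46, *hspd1* at 0.41 and *hspb1* at 0.33. *hsf2* was also called higher in unaffected than in wild-type embryos, at 0.64 (edgeR adjusted p = 0.0107). In that comparison 1 of the 17 genes was called higher and 0 lower, against 4.65% and 4.95% of all fitted genes. *hsp90aa1.1* fell from 3.63, 2.01 and 3.76 CPM in wild-type to 0.517, 0.538 and 1.25 CPM in affected replicates 1 to 3 (log2 fold change -2.01, adjusted p = 0.0427). The last call was lost under 5 of the 15 alternatives. Without wild-type replicate 1 the calls numbered 2 and without affected replicate 2 they numbered 3. Over all fitted genes the 5144 calls became 3985 and 3402 in these fits. Between the mutant groups edgeR called 0 of the 17 genes, with 3 at an unadjusted p under 0.05, 1 by DESeq2 and 2 with the replicate block. That compares with 1.88% higher and 1.11% lower over all fitted genes in edgeR. Over all genes DESeq2 gave 1224 calls and the block 1399. The share of all fitted genes at an unadjusted p under 0.05 is not given here.

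**Figure D4:**
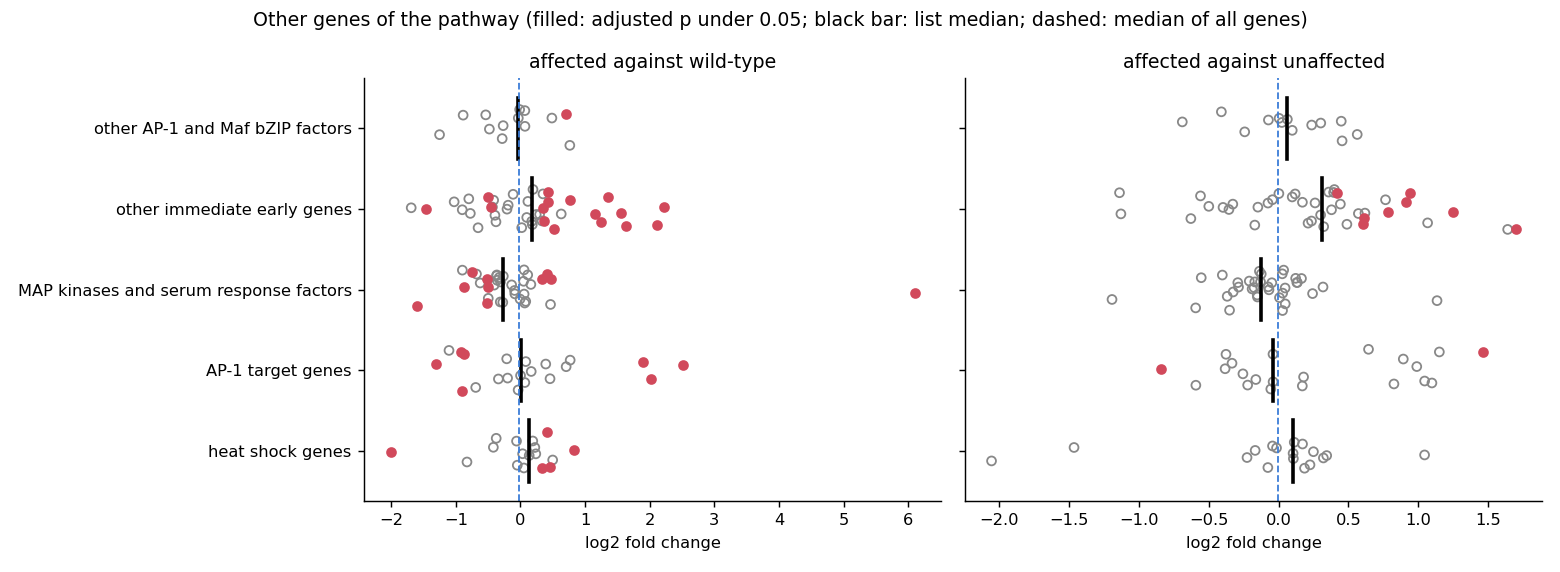
Log2 fold change (x axis) of the fitted genes of 5 lists around AP-1 (y axis), for affected against wild-type (left) and affected against unaffected embryos (right). Each circle is a gene, filled where the edgeR adjusted p is under 0.05; black bars are list medians and the dashed line is the median of all fitted genes. The immediate early genes have the median farthest to the right in both panels, at 0.18 and 0.31; the point at 6.11 is *mapk10*, a fitted value against wild-type libraries with 0 to 2 counts.

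The genes next to the 10 genes were also examined. By their order in the RefSeq annotation of the assembly GRCz12tu, 18 neighbors were matched to the table and 12 were fitted. Relatives lay beside some of them, *fosab* beside *batf* and *atf3* beside *batf3*. *batf3* was at a log2 fold change of 0.76 (edgeR adjusted p = 0.0767) and *batf* at -0.48 (adjusted p = 0.401) between affected and wild-type embryos. Among the 12 neighbors 0 were called higher and 2 lower in that comparison, against 15.4% and 15.0% of all fitted genes. *prdx6*, next to *jun*, fell by 0.70 (adjusted p = 0.0433) and *ccdc85b*, next to *fosl1a*, by 0.96 (adjusted p = 0.0153) on the log2 scale. Relative to unaffected embryos *prdx6* was at 0.01 (adjusted p = 0.989) and *ccdc85b* at -0.27 (adjusted p = 0.629).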

How the data were processed

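The deposited table holds unnormalized counts of read pairs in the exons of each gene. According to the methods and labels, the authors sequenced ribosome-depleted, strand-specific total RNA libraries (the labels name polyA RNA), mapped read pairs with STAR to GRCz11 and assigned uniquely mapped pairs to Ensembl genes with SAMtools, with bcl2fastq 2.17.1.14 and STAR 2.4.0i listed in the submitters' processing notes. Use of strand in counting is not stated, so overlapping, antisense and near-identical genes are uncertain.

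Members and gene lists were chosen with earlier results of these data known, and lists were written by hand. Where a zebrafish name with a final a or b was absent from the name table, the symbol lacking that letter was taken, and *fosab* is listed as *fos*. The model used edgeR 4.0.16 (with limma 3.58.1, under R 4.3.3; filterByExpr, TMM, 1 quasi-likelihood fit of 9 libraries with 3 groups, two-sided tests, Benjamini-Hochberg over 16962 genes, threshold 0.05). The biological coefficient of variation was 0.176. Log2 CPM used a prior count of 2. All 10 members are named; of each other list up to 6 called genes with the largest change between affected and unaffected or, where none passed, affected and wild-type embryos, and genes beyond these were named after their values were seen. Alternatives were DESeq2 1.42.0, library size scaling, other count filters, the 6 compared libraries alone, the replicate number as a block and leaving out each library. The code was tested on simulated data.

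Libraries of a group differed beyond sampling noise (chi-square per degree of freedom 9.43 to 74.2). Nothing in the labels says that they came from separate clutches, so p-values measure only the spread between these libraries. Residuals of same-numbered libraries were correlated for pairing. The 3 correlations ranged from 0.123 to 0.268 for unaffected with wild-type libraries and from 0.169 to 0.462 for affected with unaffected ones. For affected with wild-type libraries they ranged from 0.0805 to 0.260. Replicate 3 had the highest in each set. The first and second sets were all over 0.1 and the last was not, so whether the libraries pair by number was not settled. The calls, fold changes and standard errors of the main fit take no account of pairing. Counts with the replicate number as a block are given as an alternative. Protein and promoter sequences of the members were not analysed here.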

Additional observations from a re-analysis of the deposited data

How the results depend on the processing

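Direction was kept for each member or named list gene that passed, under every alternative that gave it a value. Values that had not passed crossed 0 for *fosab* (-0.47 to 0.26) and *jund* (-0.20 to 0.03) between unaffected and wild-type, for *jund* (-0.02 to 0.21) between affected and wild-type and for *ier2b* (-0.16 to 0.25) between affected and unaffected embryos. Of the member calls, those between affected embryos and either other group held under all 15 alternatives. That of *fosl1a* between unaffected and wild-type embryos (1) became 0 with library size scaling and without a filter. It also became 0 with at least 10 counts in every library and with only the 6 libraries compared. As the same libraries served to choose the members, this describes the processing and is no support for the calls. When replicates were left out, member calls were 0 to 1 between unaffected and wild-type, 4 to 5 between affected and wild-type and 2 to 3 between affected and unaffected embryos. DESeq2 called 4 members between the mutant groups. Over all genes, 1628 calls between unaffected and wild-type embryos became 965 with only the 6 libraries and 758 to 1797 with a replicate left out, 5144 between affected and wild-type embryos became 3402 to 5459, and 507 between the mutant groups became 1224 with DESeq2 and 42 to 697. Of the 5 lists together, 12 calls between unaffected and wild-type embryos became 6 with only the 6 libraries and 5 to 12 with a replicate left out, 39 between affected and wild-type embryos became 28 to 43, and 10 between the mutant groups became 21 with DESeq2 and 1 to 12. The fewest calls between the mutant groups came without affected replicate 2. The cause of these shifts was not tested.

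With the replicate number as a block, calls over all genes were 2758 between unaffected and wild-type, 6667 between affected and wild-type and 1399 between affected and unaffected embryos. The block gave 7 member calls between affected and wild-type embryos, where the numbers were not taken as pairing the libraries, and 3 between the mutant groups. Of the 5 lists it called 18, 46 and 21 genes in these comparisons. Planned comparisons of member proteins and promoters were not run. Depth limited *egr1* and the *junb* row ENSDARG00000074378, which had at most 7 and 10 counts.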
